A study of Rattus norvegicus with 12 samples.

Results

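The genes described here are 6 transcription factor genes that T cells switch on through the antigen receptor, the orphan nuclear receptors Nr4a1, Nr4a2 and Nr4a3 and the zinc finger factors Egr1, Egr2 and Egr3. They were chosen by name and are 6 of the 32623 genes listed in the count tables. The tables name genes by Ensembl identifier: Nr4a1 was read from ENSRNOG00000007607, Nr4a2 from ENSRNOG00000005600, Nr4a3 from ENSRNOG00000005964, Egr1 from ENSRNOG00000019422, Egr2 from ENSRNOG00000000640 and Egr3 from ENSRNOG00000017828. These pairings came with the gene list. They could not be checked against an annotation here, because neither the tables nor the RefSeq gene table used here pairs an Ensembl identifier with a symbol (0 identifiers matched).

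The RNA came from MBP-reactive T cells. MBP, myelin basic protein, is a component of the myelin sheath and serves as an autoantigen in rats. Fluorescently labelled cells were sorted from collagenase-digested lungs of wild type LEW/Crl rats aged 6 to 8 weeks. All rats had received 7 days of intratracheal pretreatment, either PBS (phosphate-buffered saline) as the control or an antibiotic that the labels call NEO, and lungs were taken on day 0 or day 1 of an intratracheal immunization with MBP. The 4 groups, PBS on day 0, PBS on day 1, NEO on day 0 and NEO on day 1, held 3 libraries each, numbered by lung (lung 1 is replicate 1). The labels give neither the dose of NEO nor whether a lung stands for 1 animal, so a p-value reflects only how these libraries scatter. No library without immunization was taken on day 1, so immunization, instillation, time and sorting day cannot be told apart in any comparison of the days. The sorted cells could not be checked against T cell markers here, because no marker symbol could be matched to an identifier.

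Nr4a and Egr genes are immediate-early genes: their transcription starts within a short time of receptor engagement without new protein synthesis, and their messages are short-lived. NR4A proteins bind DNA without a known natural ligand, so their activity follows their expression, and the level of Nr4a1 (Nur77) is widely used as a readout of antigen receptor signalling. EGR proteins bind GC-rich sites through zinc fingers. Egr1 is induced through the MAP kinase pathway and serum response factor, while Egr2 and Egr3 also take part in the feedback that restrains activated T cells. Immediate-early genes can also respond to handling and enzymatic digestion of tissue.

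Promoter sequence is shown for 1 gene of each family, Nr4a1 and Egr2, whose patterns over the libraries are set apart below. RefSeq promoter windows (build GRCr8; the counts were made on rn6) were given for 4 of the 6 genes by symbol, Nr4a1, Nr4a2, Egr1 and Egr2. The 250 bases before the start were searched on both strands for the CArG box, the core site of serum response factor, and for CGTCA, the half-site of CREB and ATF factors. Capitals mark these matches below. The Nr4a1 window is chr7:134259888-134260137 on the plus strand and the Egr2 window is chr20:21054442-21054691 on the minus strand.
Nr4a1: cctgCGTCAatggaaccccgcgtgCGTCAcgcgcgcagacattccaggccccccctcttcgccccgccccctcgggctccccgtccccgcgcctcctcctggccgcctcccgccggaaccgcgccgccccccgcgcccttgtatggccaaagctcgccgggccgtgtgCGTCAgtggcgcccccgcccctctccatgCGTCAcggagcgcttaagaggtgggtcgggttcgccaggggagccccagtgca
Egr2: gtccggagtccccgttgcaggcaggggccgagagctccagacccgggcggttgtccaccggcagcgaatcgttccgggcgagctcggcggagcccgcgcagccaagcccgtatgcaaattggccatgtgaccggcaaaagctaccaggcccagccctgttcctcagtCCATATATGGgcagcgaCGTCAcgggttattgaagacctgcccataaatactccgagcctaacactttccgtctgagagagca

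The Nr4a1 window held 4 matches to CGTCA, each as part of the longer TGCGTCA, and 0 CArG boxes. The Egr2 window held 1 CArG box, which began 83 bases before the start, and 1 CGTCA, which began 66 bases before it. The Egr1 window held 2 CArG boxes, beginning 105 and 83 bases before the start, and 2 matches to CGTCA. The Nr4a2 window held 1 match to CGTCA and 0 CArG boxes. GCGNGGGCG had 1 match, in the Nr4a1 window, which began 73 bases before the start. TGACGTCA and AAAGGTCA had 0 matches in each of the 4 windows. Of 33465 rat promoter windows of this length, 501 held a CArG box (1.5%), 18.2% held a CGTCA and 1.66% held a TGCGTCA. GCGNGGGCG was found in 4.29% of them, TGACGTCA in 1.59% and AAAGGTCA in 1.24%. A match describes letters in the window and is no measure of binding.

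The libraries held 7776335 to 16636349 counts, and 3 counts, taken as the limit where a gene has 0, stood for 0.18 to 0.386 CPM (counts scaled to a library total of 1000000). All 6 genes passed the filter on low counts, as did 12449 genes in all. CPM values are scaled by the trimmed mean of M values (TMM), and folds between libraries or groups are stated gene by gene, since no gene lengths of the annotation were used to compare genes with each other. In sorted bulk RNA, fewer cells of a kind that express a gene and less RNA per cell cannot be told apart.

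The 6 genes were already expressed on day 0, and in 11 of the 12 libraries each stayed within a range of 1.68-fold to 3.8-fold. Outside the library of NEO day 0 lung 1, the highest library exceeded the lowest 2.34-fold for Nr4a1, 1.73-fold for Nr4a2, 2.69-fold for Nr4a3, 2.67-fold for Egr1, 3.8-fold for Egr2 and 1.68-fold for Egr3. In NEO day 0 lung 1 all 6 genes were lower than in each of the other 11 libraries. Together the genes took 0.0831% to 0.146% of all counts in those 11 libraries and 0.00724% in NEO day 0 lung 1.

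**Figure D1:**
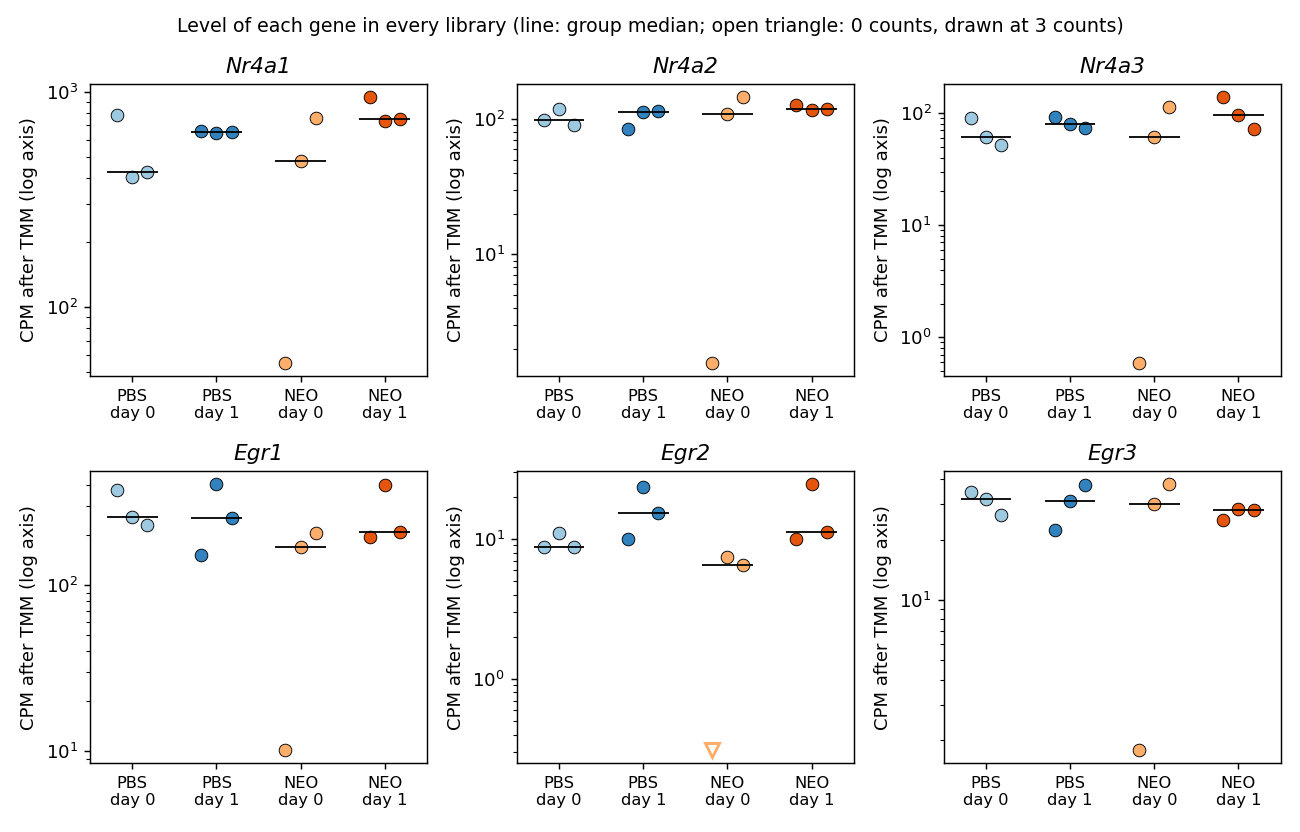
CPM after TMM scaling (log axis) of each gene in the 4 groups, 1 point per library in the order of lung number, with a line at the group median. The lowest point of NEO day 0 in every panel is lung 1, and the open triangle for Egr2 stands for 0 counts and is drawn at the level of 3 counts. From lowest to highest, the other 11 libraries span 1.68-fold to 3.8-fold, depending on the gene.

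Nr4a1 (Nur77), the family member used as an activation reporter, was at 777, 404 and 423 CPM in lungs 1, 2 and 3 of PBS on day 0 and at 661, 645 and 653 CPM in those of PBS on day 1. In NEO it was at 55.2, 478 and 757 CPM on day 0 and at 946, 731 and 750 CPM on day 1. The PBS day 1 libraries thus lay inside the range of PBS day 0. The NEO day 1 range overlapped that of NEO day 0, whose highest library stood above 2 of the 3 NEO day 1 libraries. The group means ran from 430 ± 353 CPM in NEO day 0 through 535 ± 210 in PBS day 0 and 653 ± 8.00 in PBS day 1 to 809 ± 119 in NEO day 1 (SD, n = 3).

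Nr4a2 (Nurr1), which is best known for its role in dopamine neurons, was the steadiest Nr4a gene apart from 1 library. It was at 97.7, 118 and 91.1 CPM in PBS on day 0 and at 84.1, 113 and 115 CPM in PBS on day 1. The NEO libraries held 1.58, 109 and 146 CPM on day 0 and 127, 117 and 119 CPM on day 1. The PBS ranges of the days overlapped, and the highest and the lowest library of all both belonged to NEO day 0. In order, its means were 85.4 ± 74.9 CPM in NEO day 0, 102 ± 14.2 in PBS day 0, 104 ± 17.4 in PBS day 1 and 121 ± 5.58 in NEO day 1 (SD, n = 3).

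Nr4a3 (NOR-1), the third family member, was at 89.7, 60.9 and 51.6 CPM in PBS on day 0 and at 91.4, 79.2 and 73.5 CPM in PBS on day 1. In NEO it was at 0.593, 61.6 and 113 CPM on day 0 and at 139, 95.4 and 71.4 CPM on day 1. The ranges of the days overlapped in both arms. Means rose in the order NEO day 0 at 58.5 ± 56.3 CPM, PBS day 0 at 67.4 ± 19.9, PBS day 1 at 81.4 ± 9.14 and NEO day 1 at 102 ± 34.2 (SD, n = 3).

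Egr1, a growth factor and receptor signal responder, was at 376, 256 and 229 CPM in PBS on day 0 and at 152, 405 and 254 CPM in PBS on day 1. In NEO it was at 10.2, 170 and 207 CPM on day 0 and at 195, 404 and 208 CPM on day 1. On day 0 every NEO library was below every PBS library, as was true of 7.37% of all tested genes, while on day 1 the arms overlapped. The means were 129 ± 105 CPM in NEO day 0, 269 ± 117 in NEO day 1, 270 ± 127 in PBS day 1 and 287 ± 78.2 in PBS day 0 (SD, n = 3).

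Egr2 (Krox20), which restrains T cell activation, was at 8.79, 11.1 and 8.83 CPM in PBS on day 0 and at 10.1, 23.4 and 15.3 CPM in PBS on day 1. The NEO libraries held 0, 7.46 and 6.48 CPM on day 0 and 10.02, 24.6 and 11.3 CPM on day 1. In NEO each day 1 library was above each day 0 library, as for 12.3% of all tested genes, and in PBS the days overlapped by 1 library. On day 0 every NEO library was below every PBS library. The order of the means was NEO day 0 at 4.65 ± 4.05 CPM, PBS day 0 at 9.56 ± 1.29, NEO day 1 at 15.3 ± 8.09 and PBS day 1 at 16.3 ± 6.74 (SD, n = 3).

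Egr3, a close relative of Egr2 with a like role in T cells, was at 34.5, 31.7 and 26.4 CPM in PBS on day 0 and at 22.4, 31.2 and 37.5 CPM in PBS on day 1. In NEO it was at 1.78, 30.1 and 37.7 CPM on day 0 and at 25.0, 28.3 and 28.0 CPM on day 1. PBS day 0 lay within the range of PBS day 1. The means stood at 23.2 ± 18.9 CPM in NEO day 0, 27.1 ± 1.85 in NEO day 1, 30.4 ± 7.56 in PBS day 1 and 30.9 ± 4.09 in PBS day 0 (SD, n = 3). Neighbours in the order of the group means did not differ past the test described next for any pair compared there, which leaves out PBS day 0 and NEO day 1, neighbours for Egr2, whose ranges overlapped and whose difference was not tested.

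The library of NEO day 0 lung 1 stood apart from all others in these genes. Against the other 5 day 0 libraries pooled, Nr4a1 was 10.04-fold lower in it (559 counts, 95% exact counting interval of the ratio 9.24 to 10.9). Nr4a2 was 69.4-fold lower (16 counts, 42.7 to 121) and Nr4a3 123-fold lower (6 counts, 56.4 to 335). The interval of Nr4a1 lay below those of Nr4a2 and Nr4a3. Egr1 was 24.4-fold lower (103 counts, 20.1 to 30.0) and Egr3 17.8-fold lower (18 counts, 11.2 to 30.0). Egr2 had 0 counts there and 574 in the other 5 libraries, which puts it at least 29.0-fold lower when 3 counts are taken for the library. These intervals cover counting error only.

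Of all tested genes, 23.4% were lower in NEO day 0 lung 1 than in each of the other 11 libraries, against 6 of the 6 genes described here. A level at least 8-fold below each of the other 5 day 0 libraries was found for 5 of the 6, all but Nr4a1, which was 7.31-fold below the lowest of them. This held for 3.03% of the genes tested, and for 0.909% of the 8139 genes whose mean CPM was at least that of Egr2, the lowest of the 6. The comparison was chosen after the values had been seen. That library held 9694765 counts, inside the range of the others, and had a count for 15717 genes, where the other 11 libraries had 15282 to 20351. The part of cell makeup, cell handling or RNA quality in its low values was not tested.

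**Figure D2:**
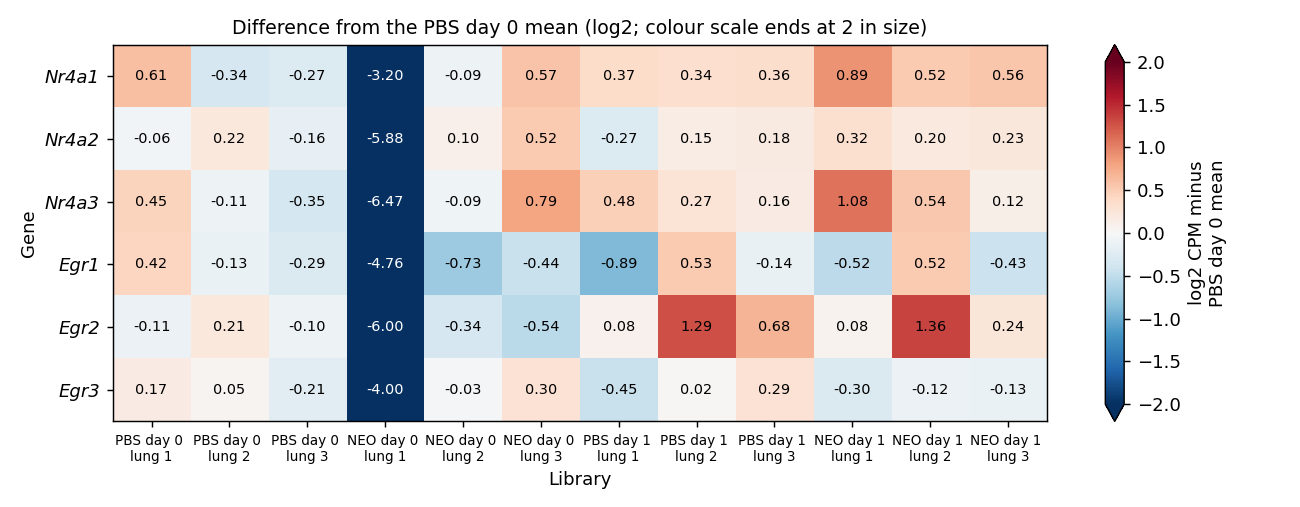
Log2 CPM (prior count 2) of each gene minus its mean in PBS day 0, printed for each of the 12 libraries, with red for higher and blue for lower levels and colours that end at a size of 2. All 6 genes run from -6.47 to -3.2 in NEO day 0 lung 1, and Egr2 stands at 1.29 and 1.36 in the day 1 lungs numbered 2.

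How the genes changed from day 0 to day 1 in control lungs was tested with edgeR's quasi-likelihood model, fitted to all 12 libraries and adjusted by the method of Benjamini and Hochberg over all tested genes. None of the 6 genes was called, where 25.7% of all genes tested were (an adjusted p under 0.05). The count at an unadjusted p under 0.05 was also 0 of the 6. Egr2 had the largest log2 change in PBS, 0.77 ± 0.79 (SE, edgeR adjusted p = 0.518). Nr4a1 and Nr4a3 followed with 0.29 ± 0.63 and 0.27 ± 0.89, and Nr4a2, Egr1 and Egr3 were at 0.03 ± 0.83, -0.09 ± 0.74 and -0.02 ± 0.65 (SE, edgeR adjusted p from 0.779 to 0.986). The median was 0.15 over the 6 genes and -5.7e-04 over all tested genes.

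These standard errors carry the spread of NEO day 0 lung 1, because the fit shares 1 dispersion per gene between the groups. Fitted to the PBS libraries alone, the changes kept their sizes with far narrower intervals. Nr4a2 then changed by 0.03 with a 95% interval from -0.31 to 0.36 and Egr3 by -0.02 with an interval from -0.46 to 0.41, so a 2-fold change in either direction lay outside the interval for both (edgeR adjusted p = 0.897 and 0.928). For Nr4a1 the interval ran from -0.25 to 0.83, for Nr4a3 from -0.18 to 0.73 and for Egr1 from -0.88 to 0.71. These intervals excluded a 2-fold change as well. Egr2 was 0.77 higher on day 1, with an interval from 0.09 to 1.45, which includes a 2-fold rise. It still missed the threshold after adjustment (unadjusted p = 0.031, edgeR adjusted p = 0.0666). That fit called 5186 of all genes tested in it, after a filter on low counts applied anew, so this is not a share of the 12449 genes.

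In NEO, day 1 against day 0 again gave 0 calls among the 6 genes, where 14.7% of all tested genes were called, and 0 of the 6 at an unadjusted p under 0.05. The log2 changes were 0.91 ± 0.63 for Nr4a1, 0.50 ± 0.84 for Nr4a2, 0.80 ± 0.89 for Nr4a3, 1.06 ± 0.75 for Egr1, 1.71 ± 0.83 for Egr2 and 0.22 ± 0.66 for Egr3 (SE, edgeR adjusted p from 0.179 for Egr2 to 0.845 for Egr3). Their median was 0.85, where that of all tested genes was -0.02. Without NEO day 0 lung 1 the median fell to 0.30 and the directions of Nr4a2 and Egr3 turned, to -0.08 ± 0.17 and -0.34 ± 0.20 (SE). Nr4a1 was then at 0.38 ± 0.28, Nr4a3 at 0.21 ± 0.33, Egr1 at 0.50 ± 0.41 and Egr2 at 1.13 ± 0.42 (SE, edgeR adjusted p = 0.0917 for Egr2 and from 0.26 to 0.758 for the other 5). None of the 6 was called there, where 17.3% of tested genes were.

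**Figure D3:**
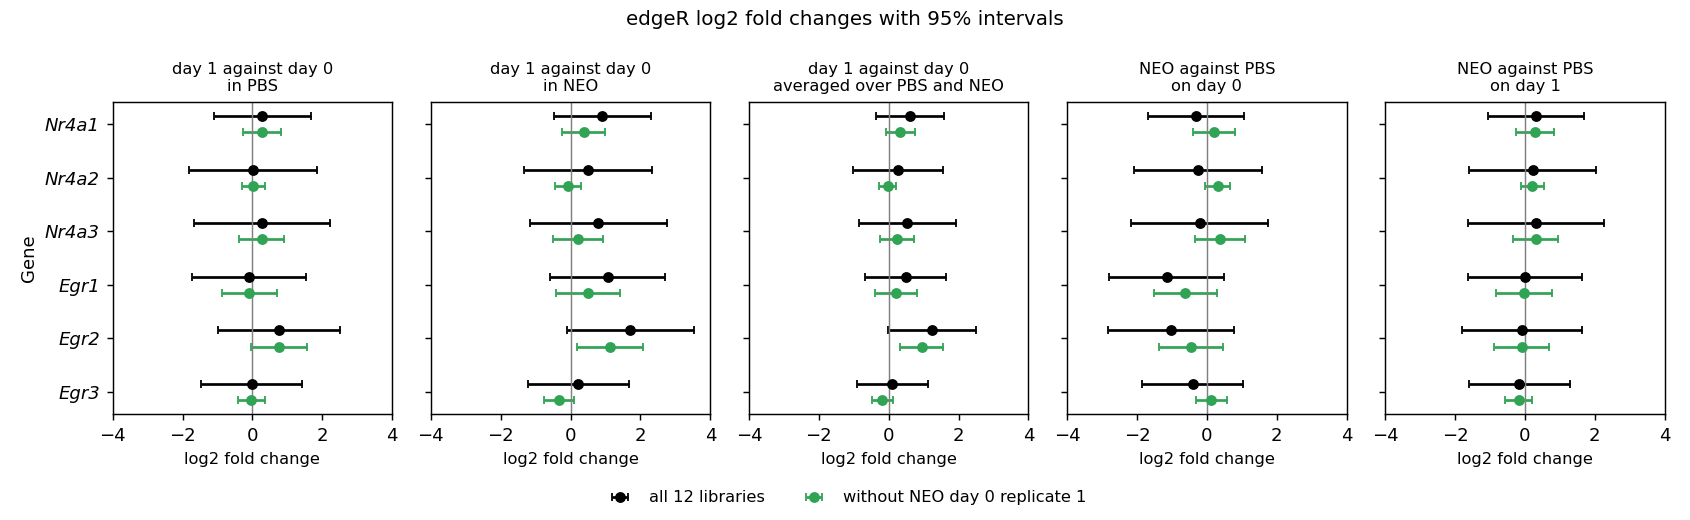
Log2 fold changes from edgeR with 95% intervals for the 6 genes in 5 comparisons, in black from all 12 libraries and in green without NEO day 0 replicate 1 (lung 1). Egr2 in the day effect averaged over the arms and in that of NEO has a green interval that excludes 0, and all black intervals include 0.

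Averaged over both arms, the day effect called 0 of the 6 genes in the fit of all libraries, where 38% of all tested genes were called. Egr2 had the largest value, 1.24 ± 0.57 (SE, unadjusted p = 0.0527, edgeR adjusted p = 0.109). Without NEO day 0 lung 1, Egr2 rose by 0.95 ± 0.28 on the log2 scale (SE, edgeR adjusted p = 0.0187), which is 1.93-fold with an interval from 1.26-fold to 2.95-fold. The library left out was the one in which the 6 genes were lowest, with 0 counts of Egr2. Leaving it out is thus tied to the genes' own values, and Egr2 was called in 1 of the 20 alternatives for this comparison. Egr2 was the 1 gene of the 6 called in that fit, where 42.8% of tested genes were called and 20.2% were called as higher. When each of the remaining 11 libraries was left out as well, 9 of the 11 fits still called it, and the call ended without NEO day 0 lung 2 (edgeR adjusted p = 0.0573) or lung 3 (adjusted p = 0.0717), either of which leaves NEO day 0 with 1 library that is assumed to vary like the other groups. The other 5 genes were not called without NEO day 0 lung 1, with changes of 0.33 ± 0.19 for Nr4a1, -0.03 ± 0.11 for Nr4a2, 0.24 ± 0.22 for Nr4a3, 0.21 ± 0.27 for Egr1 and -0.18 ± 0.13 for Egr3 (SE, edgeR adjusted p from 0.174 to 0.844). Nr4a1 was called in 1 of these 11 fits, that with PBS day 0 lung 1 left out too (log2 change 0.52, edgeR adjusted p = 0.0138). That library held the most Nr4a1 of PBS day 0 (777 CPM), so leaving it out is also tied to the gene's own values. The share of all genes called in that fit is not given here.

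The effect of the antibiotic at the start of the response was addressed by comparing NEO with PBS on day 0, where edgeR called 0 of the 6 genes and 0% of all tested genes. At an unadjusted p under 0.05 there were 0 of the 6 genes and 832 of all. The arms did not overlap for 2 of the 6 genes, Egr1 and Egr2, against 14.3% of all tested genes in either direction and 7.37% with NEO lower. These 2 genes had log2 differences of -1.15 ± 0.75 and -1.02 ± 0.82 (NEO minus PBS, SE, edgeR adjusted p = 0.745 and 0.767). Without NEO day 0 lung 1 these were -0.61 ± 0.41 and -0.46 ± 0.42, with intervals from -1.52 to 0.30 and from -1.38 to 0.47. The other 4 genes turned from slightly lower to slightly higher in NEO without that library. Nr4a1 went from -0.31 to 0.21, Nr4a2 from -0.26 to 0.31, Nr4a3 from -0.20 to 0.37 and Egr3 from -0.41 to 0.13, and the signs of Nr4a1 and Nr4a3 also turned without PBS day 0 lung 1 (0.06 and 0.06).

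On day 1, NEO against PBS called 0 of the 6 genes and 0% of all tested genes, with 0 of the 6 and 517 of all at an unadjusted p under 0.05. The differences were 0.31 ± 0.63 for Nr4a1, 0.22 ± 0.83 for Nr4a2, 0.32 ± 0.88 for Nr4a3, -0.01 ± 0.74 for Egr1, -0.08 ± 0.78 for Egr2 and -0.16 ± 0.65 for Egr3 (SE, edgeR adjusted p from 0.996 to 0.999). Libraries of the same lung number deviated together on day 1, and a fit of the day 1 libraries with the number as a block gave narrower intervals. The labels do not give this pairing, and the fit was added after the data had been seen, so its intervals may be too narrow. Nr4a1 was 0.30 ± 0.09 higher in NEO (SE, unadjusted p = 0.00906, edgeR adjusted p = 0.146) and was higher in NEO at each of the 3 numbers, by 0.52, 0.18 and 0.20. Nr4a3 was 0.27 ± 0.12 higher (unadjusted p = 0.0389, edgeR adjusted p = 0.261) and Nr4a2 0.22 ± 0.12 (edgeR adjusted p = 0.351). Egr1 was at 0.02 with a 95% interval from -0.24 to 0.27, Egr2 at -0.12 with an interval from -0.44 to 0.19, and Egr3 at -0.15 with an interval from -0.43 to 0.12. None of the 6 passed after adjustment, where 78 of all genes tested in that fit did. An unadjusted p under 0.05 was found there for 2080 genes. The filter on low counts was applied anew in that fit, so these counts are not shares of the 12449 genes. A 2-fold difference lay outside each of the 6 intervals of that fit.

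Whether the day effect differed between the arms was tested as an interaction (NEO minus PBS), for which edgeR called 0 of the 6 and 0% of all genes (0 of the 6 and 608 of all at an unadjusted p under 0.05). The values ran from 0.25 ± 0.93 for Egr3 to 1.15 ± 1.05 for Egr1 (SE, edgeR adjusted p from 0.884 to 0.974). Without NEO day 0 lung 1 they ran from -0.31 ± 0.26 for Egr3 to 0.59 ± 0.54 for Egr1 (SE, edgeR adjusted p from 0.785 to 0.975). Only for Nr4a1, Nr4a2 and Egr3 did the interval then lie within 2-fold either way.

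On day 1 the lungs numbered 2 held the most Egr1 and Egr2 in both arms. Egr1 was 1.99-fold higher in lung 2 than in the mean of lungs 1 and 3 in PBS and 2.0-fold in NEO. For Egr2 these ratios were 1.85 in PBS and 2.31 in NEO. Egr3 did not share this, with ratios of 1.04 and 1.07, and neither did Nr4a1 (0.982 and 0.862), Nr4a2 (1.13 and 0.949) or Nr4a3 (0.960 and 0.908). A level at least 1.5-fold above both other lungs in both arms was found for 2 of the 6 genes, against 2.18% of all tested genes, a comparison chosen after the values had been seen. The labels do not say what a lung number shares between the arms.

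**Figure D4:**
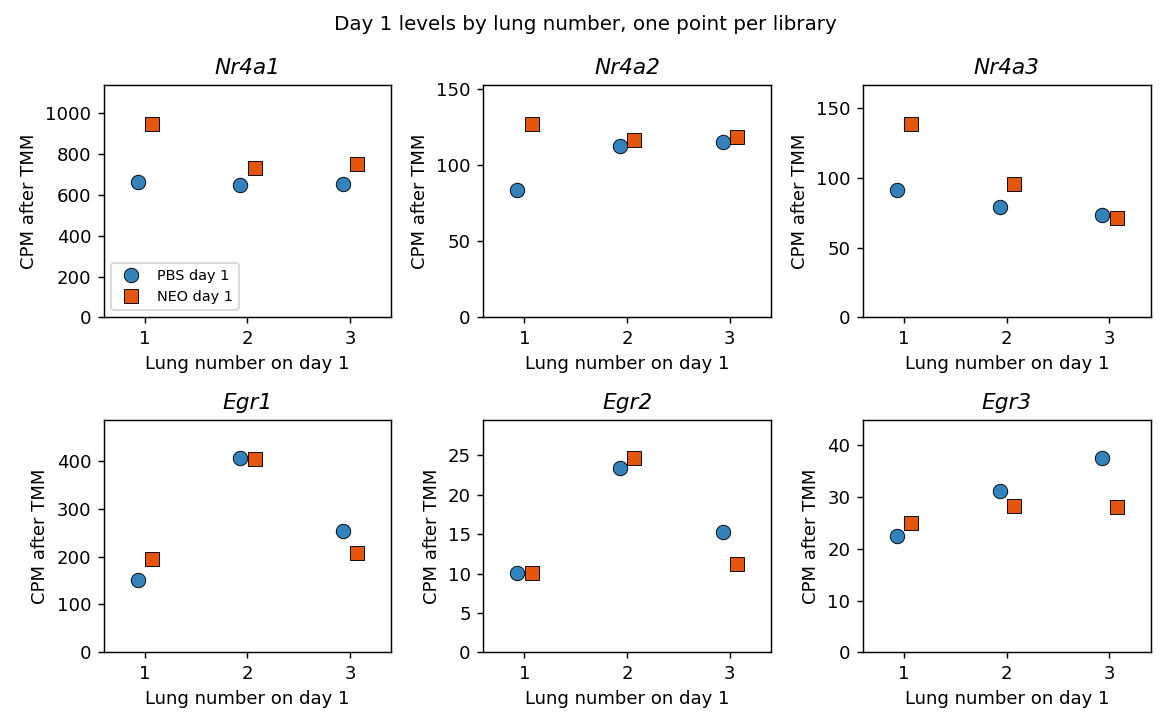
CPM after TMM scaling of each gene in the 6 day 1 libraries, by lung number, with circles for PBS and squares for NEO. Egr1 (405 and 404 CPM) and Egr2 (23.4 and 24.6 CPM) peak in lung 2 of both arms, whereas Nr4a1, Nr4a2, Nr4a3 and Egr3 have no such peak.

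Which of the 6 genes had the most similar pattern was measured as the root mean square difference of their log2 CPM over libraries, each gene centred on its own mean. Over all 12 libraries Nr4a3 and Nr4a2 were closest, at 0.41, and Nr4a2 was the 2nd nearest to Nr4a3 of 8376 genes ranked. Egr3 was likewise the 2nd nearest to Egr1, at 0.447. Nr4a1 and Egr3, of different families, were slightly nearer to each other, at 0.435. Egr3 was at rank 40 for Nr4a1, and Nr4a1 at rank 18 for Egr3. Without NEO day 0 lung 1 the distances were 0.36 for Nr4a2 and Nr4a3 and 0.43 for Egr1 and Egr3. The ranks of Nr4a2 for Nr4a3 and of Egr3 for Egr1 then went from 2 to 462 and from 2 to 178. In the other direction, Nr4a3 was then at rank 5908 of 8359 for Nr4a2, and Egr1 at rank 7073 of 8765 for Egr3. Seen from Nr4a2 and from Egr3, these distances were larger than the median to all ranked genes, 0.30 for each. Nr4a1 and Nr4a3 were then the closest pair, at 0.19, with Nr4a1 3rd of 8359 genes in likeness to Nr4a3 and Nr4a3 5th in likeness to Nr4a1. Egr1 and Egr2 were at 0.43, with Egr1 at rank 110 of 9982 for Egr2, and Nr4a2 and Egr3 at 0.22, at ranks 612 and 902 of the genes ranked for each. Across families the distance of Nr4a1 was 0.56 to Egr1 and 0.65 to Egr2, both larger than the median of 0.44 between Nr4a1 and all ranked genes. Other genes near them are not named, since no identifier could be matched to a symbol.

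Within groups, the SD of log2 CPM of the 6 genes was larger than the median SD of all tested genes for 6 of 6 genes in both day 0 groups, 5 of 6 in PBS on day 1 and 3 of 6 in NEO on day 1. In PBS on day 0 it ran from 0.19 for Egr2 to 0.53 for Nr4a1, where the median of all genes was 0.13. In PBS on day 1 it ran from 0.02 for Nr4a1 to 0.71 for Egr1, with a median of 0.16 for all genes, and in NEO on day 1 from 0.07 for Nr4a2 to 0.70 for Egr2, with a median of 0.23. Nr4a1 in PBS thus had the largest SD of the 6 on day 0 and the smallest on day 1, each from 3 libraries. This was picked out after the values had been seen and was not tested. In NEO on day 1 the SD of Nr4a1 was 0.21 and was not the smallest. In NEO on day 0 the SD ran from 2.01 for Nr4a1 to 3.96 for Nr4a3 with all 3 libraries, and from 0.14 for Egr2 to 0.62 for Nr4a3 between lungs 2 and 3. Between those 2 lungs the median of all genes was 0.154. There 5 of 6 genes were above it, and Egr2, at 0.141, was below it.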

How the data were processed

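Each library has a deposited table of raw read counts by gene. STAR 2.5.2a, featureCounts 1.5.0-p1, bcl2fastq 2.17.1.14 and the build rn6 are named in the submitters' processing notes. The annotation release, strand setting and handling of reads that fit several genes are not stated there, so overlapping or antisense genes may share reads. The 6 genes and all lists were chosen with earlier results of these data known. The 4 pathway lists and 10 marker lists (176 entries) were not counted, as no identifier had a symbol. The rule for named genes was to name all 6 in every comparison. All pairs of libraries differed by more than counting noise (smallest chi-square per degree of freedom 5.11).

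The fit used edgeR 4.0.16 in R 4.3.3 (filterByExpr, TMM, glmQLFit and glmQLFTest, 1 mean per group, all 12 libraries, 6 contrasts). A standard error is the size of the log2 change over the square root of its F statistic, and log2 CPM used a prior count of 2. Alternatives were other scaling factors, DESeq2 1.42.0, limma 3.58.1 voom, other filters, fewer samples and a replicate block. The scripts were tested on simulated data. Same-numbered libraries of PBS and NEO correlated in their deviations from group means on day 1 (0.494, 0.628 and 0.746, all over 0.1) but not on day 0 (-0.0658, 0.0902 and 0.0982), so the numbers were taken as pairs on day 1 only. This pairing comes from the data and not from the labels.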

Additional observations from a re-analysis of the deposited data

How the results depend on the processing

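None of the 6 genes was called in any comparison under the 20 to 22 alternatives run for each, except Egr2 in the day effect averaged over the arms, which was called without NEO day 0 replicate 1 and ran from 0.95 to 1.5 with 1 library left out, always above 0. Leaving out 1 library thus gave 0 to 1 calls among the 6 there. The replicate block changed no call among the 6, over all 12 libraries or over day 1 alone.

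Small log2 changes turned in sign without being called. With DESeq2 size factors, upper-quartile factors, DESeq2, the replicate block and the block over day 1 alone (an alternative added after seeing the data), Egr1 in NEO against PBS on day 1 was at 0.0077, 3.4e-05, 0.0068, 0.042 and 0.016. Nr4a2 in the PBS day effect was at -0.0074 with upper-quartile factors, -0.012 with limma voom, -0.018 with the replicate block and -0.054 without both day 1 libraries numbered 3. Without those 2 libraries, NEO against PBS on day 1 was at 0.13 for Egr1, 0.080 for Egr2 and 0.010 for Egr3. By limma voom Egr3 was at -0.070 in the NEO day effect and -0.082 in the averaged one.
With 1 library left out, signs turned in the ranges that follow. The PBS day effect ran from -0.054 to 0.16 for Nr4a2, -0.50 to 0.20 for Egr1 and -0.20 to 0.15 for Egr3. The NEO day effect ran from -0.084 to 1.12 for Nr4a2 and -0.34 to 0.75 for Egr3, and the averaged one from -0.031 to 0.57 for Nr4a2 and -0.18 to 0.36 for Egr3. NEO against PBS on day 0 ran from -1.0 to 0.21 for Nr4a1, -0.88 to 0.31 for Nr4a2, -1.10 to 0.37 for Nr4a3 and -0.94 to 0.13 for Egr3, and on day 1 from -0.41 to 0.41, -0.60 to 0.27 and -0.34 to 0.014 for Egr1, Egr2 and Egr3. The difference of the day effects ran from -0.11 to 1.10 for Nr4a2, -0.059 to 1.42 for Nr4a3 and -0.31 to 0.77 for Egr3. The turns in the NEO and averaged day effects and in their difference came without NEO day 0 replicate 1.

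Counts over all genes moved more. The PBS day effect called 3205 genes, 5647 by limma voom and 5186 with the PBS libraries alone. The NEO day effect called 1824, 2739 by limma voom and 125 with the NEO libraries alone. NEO against PBS called 0 on day 0, 53 by DESeq2 and 13 without a low-count filter, and 0 on day 1, 12 by DESeq2 and 78 in the block over day 1. With 1 library left out, the PBS day effect called 1954 (PBS day 0 replicate 2) to 4468 (NEO day 0 replicate 1), the NEO day effect 854 (NEO day 1 replicate 1) to 2207 (NEO day 0 replicate 1), and NEO against PBS on day 0 called 0 to 3. The cause was not tested.

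Of 144 CPM values of the 6 genes under other scaling factors, 2 moved by more than the SD of their group, those of Nr4a1 in PBS day 1 lungs 1 and 3 (652 and 641 CPM with upper-quartile factors). No scaling moved the median of all genes by over 0.1. The 6 genes came near the limit of 3 counts only in NEO day 0 replicate 1, where Nr4a3 had 6 counts and Egr2 had 0. That library was deeper than NEO day 1 replicate 1 (9694765 against 7776335 counts), where Nr4a3 had 1095 counts and Egr2 had 79.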

Other observations

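The ratio of Egr1 to Nr4a1 counts within a library, chosen after the values had been seen and given without a test, was 0.484, 0.635 and 0.542 in PBS on day 0 and 0.184, 0.355 and 0.273 in NEO on day 0. The arms did not overlap on day 0, with or without NEO lung 1. How many other pairs of genes separate the arms in this way was not counted. On day 0 the arms did overlap in the ratio of Nr4a2 to Nr4a1 (0.126, 0.293 and 0.215 in PBS, 0.0286, 0.228 and 0.192 in NEO). They also overlapped in that of Nr4a3 to Nr4a2 (0.918, 0.515 and 0.567 in PBS, 0.375, 0.567 and 0.776 in NEO). On day 1 the ratio of Egr1 to Nr4a1 was 0.230, 0.628 and 0.390 in PBS lungs 1, 2 and 3. It was 0.206, 0.552 and 0.278 in the NEO lungs of the same numbers. The arms thus overlapped, while each NEO lung was below the PBS lung of its number.

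The ratio of Egr2 to Egr3 was 0.255, 0.348 and 0.334 in PBS and 0, 0.248 and 0.172 in NEO on day 0, against 0.449, 0.751 and 0.408 in PBS and 0.401, 0.870 and 0.401 in NEO on day 1. Every day 1 library was above every day 0 library. This ratio was also chosen after the values had been seen and is given without a test. How many other pairs of genes separate the days in this way was not counted. The ratio of 0 is that of NEO day 0 lung 1, where Egr2 had 0 counts.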
